A study of Mus musculus with 16 samples.

Results

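The transcriptome of mouse embryonic stem cells collected as a control at 48 h was compared with that of cells collected at the start of E1A induction. The comparison takes 4 of the 16 arrays of the series, namely both arrays of the 48 h control and both arrays of 0 h, and the members were chosen by the sample titles alone. The other groups, with 2 arrays each, were 3, 6, 9, 12, 24 and 48 h of E1A induction; the 48 h group is used below to find what changed in the control and not under induction. All 16 samples are labelled as embryonic stem cells with a genetic background mixed from C57BL/6, C3H and CD1, and the control carries the same treatment label, induction of E1A, as the rest. The design text names the control a cherry control. Cherry is a red fluorescent protein, and E1A is an early gene product of adenovirus that binds the retinoblastoma proteins as well as the acetyltransferases p300 and CBP. The labels do not say whether the control cells carried E1A, which promoter or inducing agent was used, whether the cells were of 1 clone, or how they were cultured. With no 0 h sample of the control cells analysed here, 48 h in culture, the inducing agent and any standing difference between cell lines cannot be told apart.

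Embryonic stem cells hold a naive pluripotent state through a network of transcription factors, among them Nanog, Esrrb, Klf4 and Tbx3, around the core factors Pou5f1 and Sox2. Signalling through the ERK kinases moves these cells towards the formative and primed states, in which the DNA methyltransferase Dnmt3b and the factor Otx2 are high. A small and changing fraction of cells in such cultures passes through a state that resembles the 2-cell embryo, marked by Zscan4 genes.

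Each array gave a bead intensity and a detection p-value for 25697 probes, of which 23978 have 1 gene symbol in the platform annotation. Per array, 12124 to 12639 probes were detected at a p-value under 0.05. The 2 arrays of a group correlated at r = 0.995 to 0.997. Precision is limited by having 2 arrays per group: for the median probe, a log2 difference between groups had a standard error (SE) of 0.12. Nothing in the labels says that the 2 samples of a group came from separate cultures, so the p-values reflect only how far these samples spread, and that spread may be technical. Levels are given as normalized log2 intensities, in which 1 unit is a doubling, and are compared between arrays and never between probes. The labelled cell type was checked against its markers. In the control, 14 of 15 naive and 10 of 10 general pluripotency genes with a probe were detected on both arrays, against 13 and 10 at 0 h.

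The control differed from 0 h across much of the transcriptome. Of the 13974 probes tested, 3592 were higher in the control (25.7%) and 3796 were lower (27.2%), which makes 52.9% in all (limma, Benjamini-Hochberg adjusted p under 0.05). Most differences were moderate. A log2 difference of at least 1 was reached by 685 higher (4.9%) and 478 lower (3.42%) probes, and one of at least 2 by 60 higher (0.429%) and 27 lower (0.193%) probes. Both control arrays lay above both 0 h arrays for 35.1% of tested probes and below both for 38.8%. The balance of the directions depended on the scaling: 48.6% of the changed probes were higher after quantile normalization and 37.4% after median scaling, which moved the median of all probes to -0.12. After 48 h of induction, 53% of the tested probes differed from the same 0 h arrays.

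Adssl1, the muscle isozyme of adenylosuccinate synthase in purine synthesis, had the largest rise of the control over 0 h. Its brightest probe read 5.67 and 5.71 at 0 h and 9.93 and 9.77 in the control, and 9.80 and 9.69 at 48 h of induction. The control arrays lay far above the 0 h arrays and beside the 48 h arrays. The difference from 0 h was 17.9-fold (log2 4.17, SE 0.10, adjusted p = 4.15e-12), and all 3 tested probes of the gene rose, the least responsive by only 0.79. Gsc, the homeobox factor goosecoid of the embryonic organiser, read 5.20 and 4.98 at 0 h, 8.82 and 8.60 in the control, and 7.49 and 7.34 at 48 h. The 3 groups did not overlap, with the control on top, and Gsc stayed between 4.94 and 5.96 on the 10 arrays from 3 to 24 h. It was detected on 1 of the 2 arrays of 0 h, so the measured 12.3-fold rise is set against a level near background (log2 3.62, SE 0.14, adjusted p = 1.92e-10).

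Tgfbi, a matrix protein induced by TGF-beta, and Rgcc, a regulator of the cell cycle, likewise rose further in the control than at 48 h. Tgfbi read 6.94 and 6.68 at 0 h, 8.92 and 8.95 at 48 h and 10.07 and 10.02 in the control. Rgcc read 5.33 and 5.62 at 0 h, 7.11 on both 48 h arrays and 8.70 on both control arrays. Cbln1, a secreted organiser of synapses, read 5.89 and 5.92 at 0 h, 6.98 and 6.75 at 48 h and 8.88 and 8.58 in the control. In all 3 genes the arrays fell into 3 separate pairs, lowest at 0 h and highest in the control. The log2 differences of the control from 0 h were 3.24 for Tgfbi, 3.22 for Rgcc and 2.83 for Cbln1. The tested differences of 48 h from the control were -1.11, -1.59 and -1.87 (adjusted p = 8.58e-06, 4.27e-06 and 8.04e-07).

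Other genes near the top rose in both 48 h groups, and 4 of them with no tested difference between those groups. Ddit3, the stress factor CHOP, rose by a log2 difference of 3.17 in the control and 2.89 at 48 h. Tsc22d3, a leucine zipper protein induced by glucocorticoids, rose by 3.04 and 2.77 in its brightest probe, while the other of its 2 probes rose by 0.57 in the control. The calcium-binding gene S100a1, detected on 1 array of 0 h, rose by 2.95 and 2.90, and the neuronal enolase gene Eno2, not detected at 0 h, by measured values of 2.79 and 2.78. For none of these 4 genes did the difference of 48 h from the control pass the test (adjusted p = 0.19, 0.074, 0.867 and 0.973), with log2 values of -0.28, -0.27, -0.05 and -0.01, each with an SE between 0.10 and 0.14. Ly6g6e, which encodes a protein of the Ly6 family, completed the 10 highest with 2.79 in the control and 2.01 at 48 h, and it was lower at 48 h than in the control by 0.78 (adjusted p = 2.47e-05). The sizes for dim genes depended on the background correction. Eno2 differed by 1.20 on the log2 scale without one and by 4.37 in the authors' deposited table of normalized values, and Gsc by 1.97 and 4.39.

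**Figure D1:**
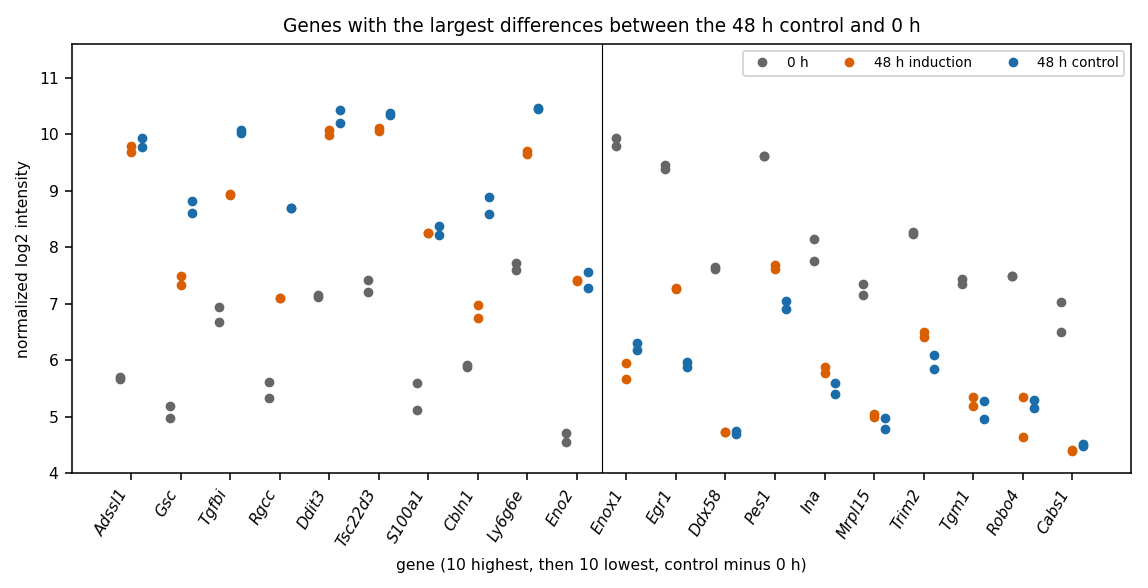
Normalized log2 intensity of 20 genes, the 10 highest and the 10 lowest by the difference between the 48 h control and 0 h. Each point is 1 array, with 2 arrays for each of 0 h, 48 h of induction and the 48 h control; in Gsc, Tgfbi, Rgcc and Cbln1 the control points lie above the 48 h points, and in Egr1 and Pes1 below them.

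The largest falls were in Enox1, a cell surface oxidase gene, and in Egr1, an immediate-early transcription factor downstream of ERK signalling. Enox1 read 9.80 and 9.94 at 0 h, 6.19 and 6.30 in the control and 5.95 and 5.67 at 48 h. It was 12.3-fold lower in the control than at 0 h (adjusted p = 6.16e-11), and it had already reached 7.58 and 7.83 at 24 h of induction. Egr1 read 9.46 and 9.39 at 0 h, 7.26 and 7.27 at 48 h and 5.96 and 5.88 in the control, where it was the lowest of all 16 arrays. The control was 11.3-fold below 0 h (log2 -3.50, SE 0.09, adjusted p = 4.15e-12), and 48 h was higher than the control by 1.35 (adjusted p = 1.59e-07). Over 3 to 12 h of induction Egr1 was between 9.69 and 10.38.

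The other 8 of the 10 lowest genes were Ddx58, Pes1, Ina, Mrpl15, Trim2, Tgm1, Robo4 and Cabs1. Ddx58, the RIG-I sensor of viral RNA, read 7.66 and 7.61 at 0 h and was detected on neither control array, so its fall was at least 5.90-fold. Pes1, a factor of ribosome assembly, fell by 2.64 in the control and by 1.96 at 48 h, and the 2 groups differed (0.68, adjusted p = 0.000113). Ina, a neurofilament protein, fell by 2.45. The ubiquitin ligase gene Trim2 fell by 2.28 in its brightest probe and by 0.69 in the other of its 2 probes. Trim2 was higher at 48 h than in the control by 0.49 (adjusted p = 0.00532). The transglutaminase gene Tgm1, detected on 1 control array, fell by 2.28. Cabs1, a spermatid protein, was detected on neither control array and fell at least 3.24-fold. For the endothelial guidance receptor gene Robo4, only 1 of 2 tested probes changed, by -2.26, against -0.27 for the other.

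Genes of the naive pluripotent state were mostly higher in the control than at 0 h. Of 14 tested, 10 rose and 2 fell, 71.4% and 14.3%, beside 27.7% and 26.1% of the 9614 genes measured. Their median log2 difference was 0.82, beside -0.01 over all genes. Dppa3, a maternal factor also called Stella, read 9.42 and 9.22 at 0 h and 10.94 and 11.06 in the control. Tbx3, a T-box factor, read 9.25 and 9.31 at 0 h, 9.43 and 9.58 at 48 h and 10.81 and 10.78 in the control. The Dppa3 and Tbx3 arrays of the control lay above the other 14 arrays. Their rises were 3.21-fold (adjusted p = 6.07e-09) and 2.87-fold (adjusted p = 2.05e-08), and the least responsive of the 3 Tbx3 probes differed by only 0.36.

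Tcl1, an activator of the kinase AKT, rose 3.28-fold, with 9.19 and 9.18 at 0 h against 10.92 and 10.87. The orphan receptor gene Esrrb rose by a log2 difference of 0.87, Klf4 by 0.98, Nanog by 0.79, the receptor gene Nr5a2 by 0.79, the growth factor gene Fgf4 by 0.85, Klf2 by 0.44 and the repressor gene Prdm14 by 1.04. Of the 3 probes of Nr5a2, 2 rose. Prdm14 was detected on neither 0 h array, which makes its rise at least 1.67-fold. Klf2 did not pass after median scaling (0.18, adjusted p = 0.279) or without control replicate 1 (0.34, adjusted p = 0.0757). The 2 that fell were Gbx2, a homeobox factor, by 1.49, and Zfp42, the zinc finger protein Rex1, by 0.39. Klf5 had a difference of 0.00 (SE 0.11) and Dppa5a one of 0.09 (SE 0.08).

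In contrast with the control, 3 of these 14 genes rose and 4 fell at 48 h of induction, with a median of 0.00, where 27.8% of all genes rose and 25.8% fell. At 48 h, 13 of the 14 were lower than in the control, 92.9% beside 9.61% of all genes, with 9.58% higher. After median scaling 11 of the 14 were lower, and fewer than 13 passed when any 1 of the 48 h or control arrays was left out. The widest gaps were in Fgf4 (-1.54), Tbx3 (-1.29) and Klf4 (-1.12), and the exception was Klf5 (-0.20, adjusted p = 0.275).

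General and primed pluripotency genes went the other way. Of 10 general pluripotency genes, 8 fell in the control and 1 rose, 80% and 10% beside 26.1% and 27.7% of all genes, with a median of -0.60. At 48 h of induction 9 of the 10 fell and 0 rose, beside 25.8% and 27.8% of all genes, with a median of -0.69. Pou5f1, the core factor Oct4, read 12.92 and 12.76 at 0 h, 12.02 and 12.08 in the control and 11.15 and 11.14 at 48 h. These 3 pairs did not overlap, with the control in the middle. The control was 0.79 below 0 h (SE 0.09, adjusted p = 2.99e-06) and 48 h was 0.91 below the control (adjusted p = 4.82e-06). L1td1, an RNA-binding protein of stem cells, fell by 1.96, the chromatin factor gene Utf1 by 1.93 and Lin28a, an inhibitor of let-7 maturation, by 1.37. Lin28a was higher at 48 h than in the control by 0.85 (adjusted p = 4.94e-05). The brighter of 2 Sox2 probes differed by 0.20 in the control (SE 0.15, adjusted p = 0.28), while the other rose by 0.39 (adjusted p = 0.0413). At 48 h they were lower than in the control by 0.64 (adjusted p = 0.007) and, short of the threshold, at -0.43 (adjusted p = 0.0599). The 1 gene that rose was Tdgf1, the Nodal co-receptor Cripto, by 0.33 (adjusted p = 0.0425). This call was lost under 8 of 16 alternative settings, and 1 of its 2 probes changed.

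Of 6 genes of the formative and primed states, 5 fell and 1 rose, 83.3% and 16.7% beside 26.1% and 27.7% of all genes, with a median of -0.70. At 48 h of induction 5 also fell and 0 rose, beside 25.8% and 27.8% of all genes, with a median of -0.56. Shares over only 6 genes are coarse. Dnmt3b read 12.52 and 12.58 at 0 h, 11.58 and 11.65 at 48 h and 11.02 and 10.96 in the control, again without overlap and with the control lowest. Its fall was 2.96-fold (adjusted p = 3.66e-08). Nodal, the TGF-beta family ligand, fell by 0.94, the zinc finger factor gene Zic2 by 0.82, the POU factor gene Pou3f1 by 0.59 and Otx2 by 0.54. Fgf15, a growth factor, rose by 0.76.

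All 5 tested genes of the 2-cell-like state rose in the control, where 27.7% of all genes did, with a median of 1.10. A share over only 5 genes is coarse. Zscan4c, a zinc finger gene active in 2-cell embryos, read 10.01 and 10.07 at 0 h, 9.34 and 9.39 at 48 h and 11.09 and 11.20 in the control. The control arrays were above all others and the 48 h arrays below those of 0 h. The control was 2.15-fold above 0 h (adjusted p = 1.78e-07), while 48 h was 0.68 below 0 h on the log2 scale (adjusted p = 2.16e-05). Tcstv1 and Tcstv3, 2-cell-stage transcripts, rose by 1.86 and 1.85, and Tdpoz4, which encodes a POZ domain protein, by 0.75 in 1 of its 2 probes. The deubiquitinase gene Usp17lc, detected on neither 0 h array, rose at least 1.17-fold. All 5 were lower at 48 h than in the control, as were 9.61% of all genes, from at least 1.21-fold for Usp17lc, not detected at 48 h, to a log2 difference of -1.78 for Zscan4c. These genes belong to multi-copy families, so a probe may read several members and the copy is uncertain. In bulk RNA, fewer cells of a type and less RNA per cell cannot be told apart.

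Targets of signalling feedback were largely lower. Of 12 tested, 9 fell and 2 rose in the control, 75% and 16.7% beside 26.1% and 27.7% of all genes, with a median of -0.88. Spry4, an inhibitor of receptor tyrosine kinase signalling, read 7.28 and 7.21 at 0 h and 4.90 and 5.20 in the control, and 5.48 and 5.24 at 48 h. Both groups at 48 h lay below all 0 h values. Its measured fall was 4.59-fold, with detection on 1 control array (adjusted p = 1.76e-08), and that of the ERK phosphatase gene Dusp6 was by 1.44 on the log2 scale. The BMP target Id1 fell by 1.52, and Id3, detected on neither control array, fell at least 1.68-fold. The Nodal inhibitors Lefty2 and Lefty1 fell by 1.29 and 0.47, and the STAT3 targets Bcl3 and Socs3 by 0.89 and 0.24. The fall of Socs3 did not pass the test without any single one of the 0 h or control arrays. The exceptions were Id2, which rose by 0.93, and the immediate-early gene Fos, which rose by 0.75.

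Fos and Egr1 thus moved in opposite directions. Fos read 5.66 and 5.51 at 0 h, 6.29 and 6.37 in the control and 8.02 and 7.96 at 48 h, where it was higher than in the control by 1.66 (adjusted p = 1.01e-07). Of the 12 feedback targets, 5 were higher at 48 h than in the control, namely Egr1, Fos, Id1, Id3 and Lefty1, and none was lower, which is 41.7% beside 9.58% of all genes.

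Among lineage markers, those of endoderm were the most often higher. Of 11 tested, 8 rose and none fell (limma; 8 of 11 also at 48 h), with a median of 0.82. The share that rose was 72.7%, beside 27.7% of all genes in the control and 27.8% at 48 h. They include the basement membrane genes Col4a2 (1.65), Col4a1 (1.41), Lama1 (1.37) and Lamb1 (0.82), the receptor gene Pdgfra (1.44), the endocytic adaptor gene Dab2 (0.65) and the factors Gata6 (1.28) and Sox17 (0.51). Gata6 read 8.36 and 8.21 at 0 h, 9.16 and 8.89 at 48 h and 9.62 and 9.51 in the control, above every other array, while Sox17 was higher at 48 h than in the control by 0.68 (adjusted p = 0.000843). Gata4 was detected on neither 0 h nor control array, and Afp and Foxa2 on no array.

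Trophectoderm, neural and mesoderm markers were mixed. Of 9 trophectoderm genes, 4 rose and 1 fell, 44.4% and 11.1% beside 27.7% and 26.1% of all genes. Of the 5 neural genes 2 rose and 1 fell (40% and 20%), and of the 5 mesoderm genes 2 rose and 2 fell (40% and 40%). In lists this short 1 gene moves a share widely. The simple keratin genes Krt7, Krt18 and Krt8 rose by 1.21, 0.93 and 0.49 in the control, and all 3 were higher at 48 h than in the control, by 0.68, 1.26 and 1.19. Cdx2 was detected on neither array of 0 h, 48 h or the control, and Elf5 and Hand1 on no array. Among the neural genes, the microtubule gene Map2 rose by 0.79, the zinc finger gene Zfp521, not detected at 0 h, rose at least 1.68-fold, Nes, not detected in the control, fell at least 1.10-fold, and Sox1, Pax6, Pax3, Neurog2 and Zic1 were detected on no array. Only 1 of 2 probes of Nes was called, and the call was lost under 9 of 16 alternative settings. Among the mesoderm genes, Gsc rose, Bmp4, a ligand of the BMP pathway, fell by 1.22 and Eomes, not detected in the control, fell at least 1.24-fold. Tbx6 also passed the test as higher (adjusted p = 0.00491), with detection on no 0 h array and 1 control array, and Mesp1, Mixl1, Kdr, Fgf8, Wnt3 and Hand1 were detected on no array.

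The labels do not say whether feeder cells were present. Of only 6 tested fibroblast markers, 3 were lower in the control than at 0 h, a coarse share of 50% beside 26.1% of all genes, and none was higher. These were Vim (-1.32), Acta2 (-1.18) and Dcn, which was detected on 1 array of 0 h and none of the control (at least 1.03-fold). The sum of the log2 levels of the list was 41.0 and 40.9 at 0 h, 40.4 and 40.8 at 48 h and 37.3 on both control arrays. The fibroblast collagen genes Col1a2 and Col3a1, and Lum, Postn and S100a4, were detected on no array, and Col1a1 on no array of these 3 groups. Acta2, smooth muscle actin, read 10.38 and 10.41 at 0 h, 11.44 and 11.31 at 48 h and 9.21 and 9.23 in the control. The control was thus below and 48 h above 0 h, all 4 probes fell in the control, and 48 h exceeded the control by 2.15 (adjusted p = 9.77e-10). The part of feeder cells in these results was not tested.

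**Figure D2:**
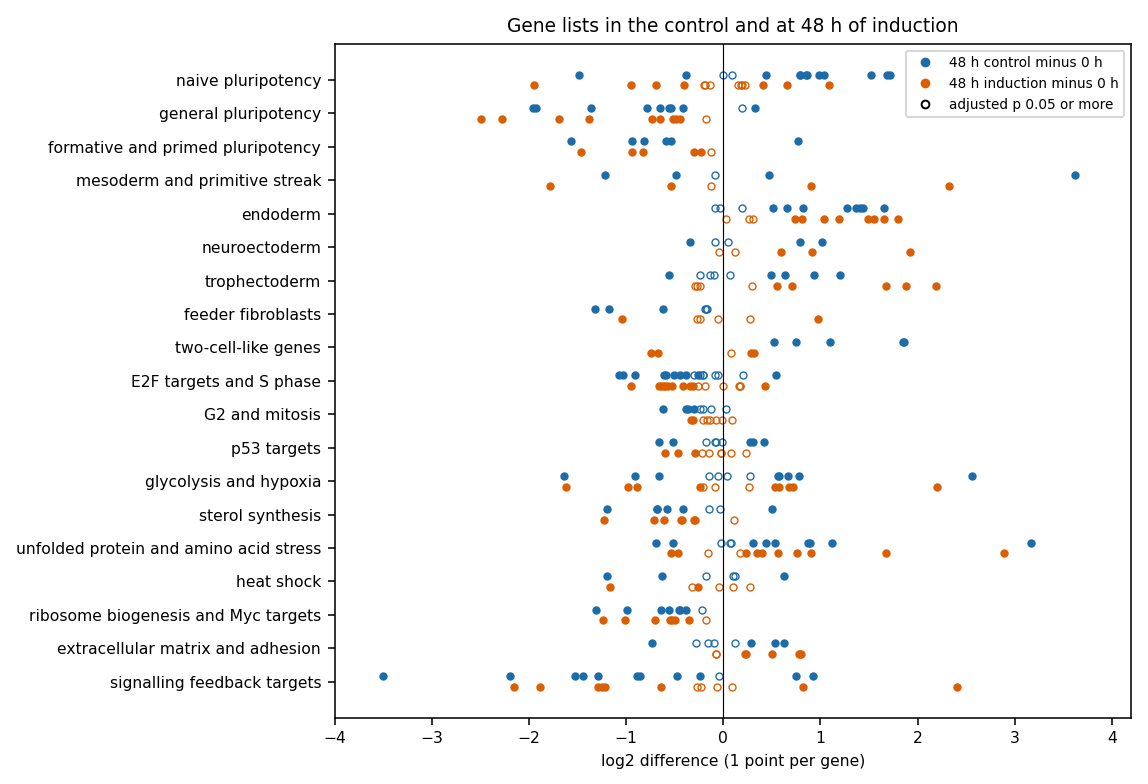
Log2 difference from 0 h of each tested gene in 19 lists, in the 48 h control (blue) and at 48 h of induction (orange); filled points passed the limma test and open points did not. The naive and 2-cell-like genes lie further right in the control than at 48 h, and the endoderm genes lie right of 0 in both; both sets of differences share the 0 h arrays.

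Genes of the amino acid and unfolded protein stress response were mostly higher. Of 12 tested, 7 rose and 2 fell in the control, 58.3% and 16.7% beside 27.7% and 26.1% of all genes, with a median of 0.38. Besides Ddit3, the rises were in Phgdh (1.12), the first enzyme of serine synthesis, Asns (0.89), which makes asparagine, Ddit4 (0.87), an inhibitor of mTORC1, Chac1 (0.54), which degrades glutathione, Trib3 (0.44), a pseudokinase, and Atf4 (0.31), the transcription factor of the response. Hspa5, the chaperone BiP, fell by 0.69, and Sesn2, an inhibitor of mTORC1, by 0.52. Asns read 12.59 and 12.71 at 0 h and 13.51 and 13.57 in the control, without overlap. At 48 h of induction 8 of the 12 rose, and Ddit4 was the 1 gene of the list that differed between 48 h and the control (0.80 higher at 48 h, adjusted p = 1.5e-05). Atf4 did not pass after median scaling (0.06, adjusted p = 0.619), without 0 h replicate 1 (0.26) or without control replicate 2 (0.22). Trib3 did not pass without control replicate 1 (0.32, adjusted p = 0.0629), nor Hspa5 without that array (-0.45) or 0 h replicate 2 (-0.55).

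Because these genes rose together, their promoter windows were searched for TGATGNAA, the core of the amino acid response element to which dimers of Atf4 bind. The windows run from 250 bases before to 50 bases after each gene's start in RefSeq (GRCm38.p6), and both strands were searched, with no second motif. A match was found in the windows of 3 of the 7 genes that rose and of 4 of all 12, and in 3.97% of the 32851 windows of all genes. The 3 windows are printed 5′ to 3′ on the gene's strand with the match in capitals. The match begins 23 bases before the start in Asns (chr6:7693160-7693459, minus strand) and 193 bases before it in Chac1 (chr2:119350992-119351291, plus strand), and 14 bases after it in Trib3 (chr2:152344011-152344310, minus strand). In Chac1 and Trib3 the capitals are the reverse complement of the motif. A match is a description of the letters and does not show binding.
Asns: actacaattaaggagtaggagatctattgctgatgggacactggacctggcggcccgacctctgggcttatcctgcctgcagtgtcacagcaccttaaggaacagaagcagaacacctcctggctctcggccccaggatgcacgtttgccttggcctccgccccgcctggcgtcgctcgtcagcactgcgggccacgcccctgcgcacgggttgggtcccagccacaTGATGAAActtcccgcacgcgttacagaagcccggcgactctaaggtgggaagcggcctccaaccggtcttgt
Chac1: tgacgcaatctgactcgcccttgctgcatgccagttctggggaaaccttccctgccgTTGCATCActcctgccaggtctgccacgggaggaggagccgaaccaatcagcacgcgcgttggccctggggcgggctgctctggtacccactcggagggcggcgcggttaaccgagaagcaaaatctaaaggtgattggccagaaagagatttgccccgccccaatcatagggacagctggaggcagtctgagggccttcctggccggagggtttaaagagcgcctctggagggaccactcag
Trib3: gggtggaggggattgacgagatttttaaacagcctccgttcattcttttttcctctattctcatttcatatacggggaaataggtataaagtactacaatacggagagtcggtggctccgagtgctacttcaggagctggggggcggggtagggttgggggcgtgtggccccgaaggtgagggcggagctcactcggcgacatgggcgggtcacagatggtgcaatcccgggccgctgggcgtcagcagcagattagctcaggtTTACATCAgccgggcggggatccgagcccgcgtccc

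Genes of growth and division were mostly lower or did not pass the test. Of 8 ribosome biogenesis genes and Myc targets, 7 fell, 87.5% beside 26.1% of all genes, with a median of -0.51, and the same count fell at 48 h. Ncl, the nucleolar protein nucleolin, fell by 1.31 and the polyamine enzyme gene Odc1 by 0.64. Myc itself was detected at 0 h and on neither control array, a fall of at least 1.38-fold. Of 17 E2F targets and S phase genes, 9 fell and 1 rose, 52.9% and 5.88% beside 26.1% and 27.7% of all genes. Their median was -0.30. After median scaling 13 fell, with a median of -0.49, and after cyclic loess 8 fell, with a median of -0.24. Ccne1 and Ccne2, the E cyclins of S phase entry, fell by 1.08 and 1.04, the replication licensing gene Cdc6 fell by 0.91, and E2f1 rose by 0.55. Of 8 genes of G2 and mitosis, 4 fell, 50% beside 26.1% of all genes, the most in Cdc20 (-0.62), an activator of the anaphase-promoting complex. After median scaling 7 fell, and after cyclic loess 3. Without 0 h replicate 2 the median of the list was -0.24, in place of -0.27. Plk1 (-0.32, in place of -0.36) and Bub1b (-0.21, in place of -0.30) then lost their calls. Of 17 and 8 genes in these lists, 14 and 8 did not differ between 48 h and the control by the test. The same held for 7769 of all 9614 genes.

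The remaining lists moved in parts. Of 8 sterol synthesis genes, 5 fell, 62.5% beside 26.1% of all genes, led by Lss (-1.20), lanosterol synthase, while Insig1, which retains the sterol sensor in the endoplasmic reticulum, rose by 0.51 in 1 of 3 probes, a call lost without 0 h replicate 1 (0.43) or control replicate 2 (0.41). Of 12 genes of glycolysis and hypoxia, 5 rose and 3 fell, 41.7% and 25% beside 27.7% and 26.1% of all genes, so the share that fell was near that of all genes. Without 0 h replicate 2, 3 rose, and 5 fell after median scaling. Vegfa, the vascular growth factor, read 7.44 and 7.51 at 0 h and 10.05 and 10.02 in the control, a 5.91-fold rise (adjusted p = 8.1e-10), with 9.62 and 9.74 at 48 h. The glucose transporter gene Slc2a3 rose by 0.78, while Pdk1, which holds back pyruvate oxidation, fell by 1.64 and Ldha by 0.66. Of 9 p53 targets, 3 rose and 2 fell, which at 33.3% and 22.2% is near the shares of all genes. Of these targets, 1 rose without control replicate 2, and after median scaling 0 rose and 5 fell. Cdkn1a, the cell cycle inhibitor p21, for which 2 of 3 probes were called, differed by 0.30 (adjusted p = 0.0158), and by 0.07 after median scaling (adjusted p = 0.566), and did not pass without 0 h replicate 1 (0.24) or control replicate 2 (0.21). Of only 6 heat shock genes, 1 rose and 2 fell, coarse shares of 16.7% and 33.3% beside 27.7% and 26.1% of all genes. Hsph1 fell by 1.20, Dnajb1 fell by 0.63 and Hsp90aa1 rose by 0.63, though not by the test without 0 h replicate 1 (0.45). Of 8 matrix and adhesion genes, 3 rose and 1 fell, 37.5% and 12.5% beside 27.7% and 26.1% of all genes. Among them Sparc rose by 0.62 and Lamc1 by 0.53, and Ccn1 fell by 0.73.

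By detection, the control gained 504 probes against 0 h and lost 292, which is 1.96% and 1.14% of all 25697. A gained probe was detected on both control arrays and on neither 0 h array, and a lost probe the reverse. Between 944 and 1053 probes were detected on only 1 of the 2 arrays within a group. At 48 h of induction 436 were gained (1.7%) and 314 lost (1.22%), and at 3 h 98 (0.381%) and 131 (0.51%). Of the 504 gained probes 426 were also higher by the limma test, with a median log2 difference of 0.60, and of the 292 lost probes 254 were lower, with a median of -0.62. Detection shares its intensities with that test, so these counts describe the same signal. Asking for only 1 control array, 769 probes were gained without control replicate 2, and 441 to 493 were lost when any 1 of the 4 arrays was left out. With fewer arrays to agree, these counts can only rise.

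The brightest gained genes were Adssl1, Eno2 and Cox6a2. The second probe of Adssl1 read 4.81 and 4.87 at 0 h and 8.53 and 8.51 in the control, a rise of at least 10.4-fold. Cox6a2, the muscle form of a cytochrome oxidase subunit, read 4.60 and 4.55 at 0 h and 7.36 and 7.35 in the control, at least 4.64-fold higher. Eno2 was at least 4.87-fold higher. All 3 were also detected on both 48 h arrays. The brightest lost genes were Ddx58, Mrpl15 and Ttn. Mrpl15, a protein of the mitochondrial ribosome, read 7.35 and 7.16 at 0 h and 4.79 and 4.98 in the control, at least 4.53-fold lower. Ttn, the giant muscle protein titin, read 6.90 and 6.97 at 0 h and 4.61 and 4.77 in the control, at least 3.63-fold lower. None of these 3 was detected on a 48 h array.

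Of the 504 gained probes, 293 were also gained at 48 h, while 107 were detected on neither 48 h array and 61 were detected on no array other than the 2 of the control. Of the 292 lost probes, 183 were also lost at 48 h and 63 were detected on both 48 h arrays. These shared counts rest on the same 0 h arrays.

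**Figure D3:**
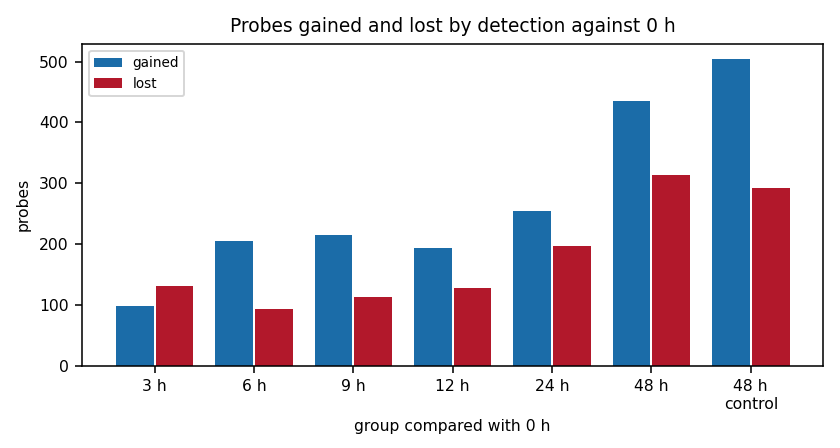
Number of probes gained and lost by detection against 0 h in each later group (detected at p under 0.05 on both arrays of one group and on neither of the other). The bars for the control stand at 504 gained and 292 lost, and those for 48 h of induction at 436 and 314.

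Probes that changed in the control and not at 48 h of induction made up the next comparison. Of the 13974 tested, 1599 (11.4%) passed the test in the control and not at 48 h, 785 higher (5.62%) and 814 lower (5.83%). Missing a threshold does not show that a probe was unchanged, and 48 h itself differed from the control in 2502 probes (17.9%), 1237 higher (8.85%) and 1265 lower (9.05%) at 48 h. Of the 1599, 613 (38.3%, or 4.39% of all tested) also differed between the control and 48 h, 349 higher (2.5%) and 264 lower (1.89%) in the control. The other 986 did not pass that test. Without control replicate 2 the 613 became 385, and the 2502 became 1552, or 1409 and 1475 without 48 h replicate 1 and 2. In the 349 higher probes the median log2 difference from 0 h was 0.58 in the control and 0.02 at 48 h. The rule for the class largely sets both values. At 24 h the median was -0.07. Of the 349, 301 were also higher in the control than at 24 h, as were 2833 of all 13974 tested probes. In the 264 lower probes the medians in the same order were -0.47, -0.01 and 0.06. Of the 264, 225 were also lower in the control than at 24 h, as were 3120 of all tested probes. The same control arrays chose both sets, so the counts against 24 h are a description. Of the 349, 57 were detected on neither 0 h nor 48 h array, and of the 264, 26 on neither control array, so their sizes are bounds. After median scaling, 45.1% of the 608 probes of this class were higher in the control, in place of 56.9%.

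**Figure D4:**
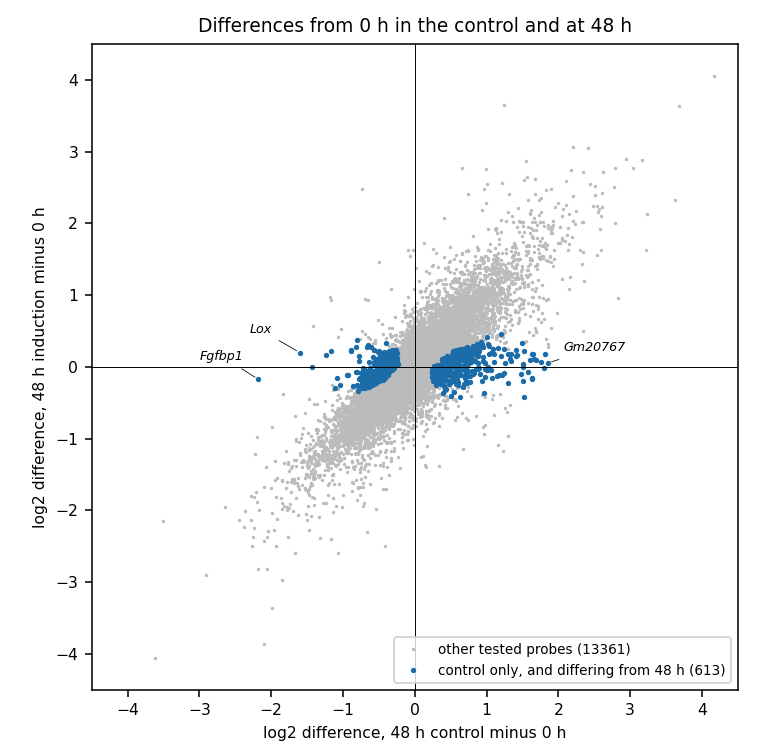
Log2 difference from 0 h in the 48 h control (horizontal) and at 48 h of induction (vertical) for each of the 13974 tested probes; the 613 probes that changed in the control, not at 48 h, and differed between both groups are blue. The blue probes spread along the horizontal axis by definition, out to Gm20767 on the right and Fgfbp1 on the left, and both axes share the 0 h arrays.

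The 5 highest of these genes were Gm20767, Usp17la, Gm13043, BC147527 and AF067061, of which Usp17la encodes a deubiquitinase of the Usp17 family. Gm20767 read 7.02 and 6.63 at 0 h, 6.83 and 6.93 at 48 h and 8.62 and 8.74 in the control. Usp17la read 5.47 and 5.49 at 0 h, 5.79 and 5.52 at 48 h and 7.28 and 7.31 in the control. Gm13043 read 6.79 and 6.70 at 0 h, 6.67 and 6.79 at 48 h and 8.47 and 8.62 in the control. In each of the 5 the control arrays lay above the other 14 arrays. The 0 h and 48 h arrays overlapped in Gm20767, in Gm13043 and in BC147527. The log2 differences of the control from 0 h ran from 1.69 for AF067061 to 1.85 for Gm20767 (adjusted p = 2.05e-08 and 3.47e-08), and those at 48 h from -0.01 to 0.18. The names of several of these genes are those of predicted or multi-copy genes, so the transcript behind each probe is uncertain.

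The 5 lowest genes encode secreted, cell surface and actin proteins. Fgfbp1, a carrier that releases fibroblast growth factors from the matrix, read 8.83 and 8.70 at 0 h, 8.63 and 8.55 at 48 h and 6.44 and 6.73 in the control. Lox, which crosslinks collagen and elastin, read 6.95 and 7.08 at 0 h, 7.22 and 7.20 at 48 h and 5.48 and 5.35 in the control. Both genes were below all 14 other arrays in the control, 4.53-fold and 3.03-fold under 0 h (adjusted p = 6.5e-09 and 4.29e-08). Without background correction the log2 difference of Lox was -0.69, in place of -1.60.

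Actg2, smooth muscle gamma actin, read 6.25 and 6.34 at 0 h, 6.34 and 6.26 at 48 h, and was detected on neither control array, where it was at least 2.34-fold lower than at 0 h and than at 48 h. Pdlim7, a PDZ and LIM protein of actin filaments, read 9.96 and 9.91 at 0 h, 10.21 and 10.11 at 48 h and 8.87 and 8.66 in the control. Lpar4, a receptor for lysophosphatidic acid, read 6.89 and 6.95 at 0 h, 7.08 on both 48 h arrays and 5.62 and 5.73 in the control. It had risen to between 7.64 and 7.96 from 6 to 24 h of induction. The tested differences of 48 h from the control were 2.01 for Fgfbp1, 1.80 for Lox, 1.40 for Lpar4 and 1.40 for Pdlim7, and the largest adjusted p of the 5 genes was 6.75e-06, in Actg2.

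**Figure D5:**
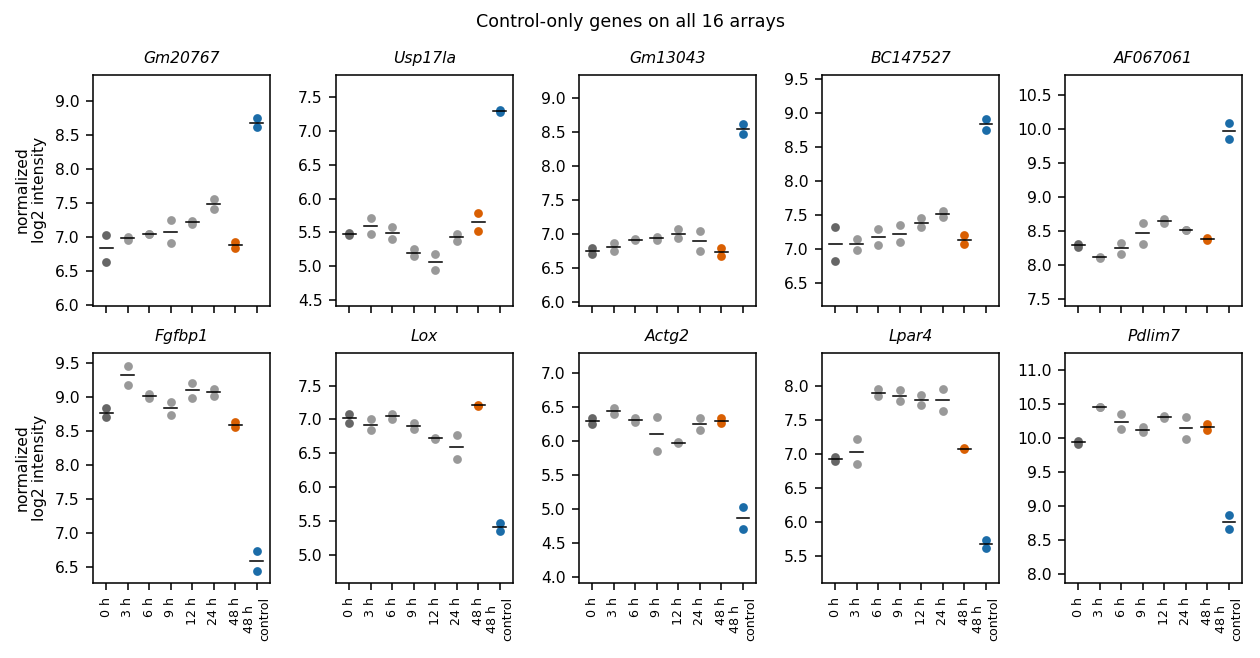
Normalized log2 intensity on all 16 arrays of the 5 highest (top row) and 5 lowest (bottom row) genes of the 613 control-only probes. Points are single arrays and bars the mean of 2; every panel spans the same range, and the control points (blue) lie above all others in the top row and below all others in the bottom row.

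A narrower class asked for a called log2 difference of at least 1 in the control and a 95% interval of the 48 h difference within 0.5 of 0 on either side. It held 46 probes, 40 higher and 6 lower, and its limits were set after values of these data were known. The median difference from 0 h of the 40 was 1.33 in the control, 0.06 at 48 h and -0.07 at 24 h. In the control all 46 lay outside the range of the other 14 arrays, where 10.3% of all tested probes lay above it and 10.6% below. The limits of the class largely set its values in the control and at 48 h, and so much of this separation. Of the 40, 11 were detected on neither 0 h nor 48 h array, where a change below background would not be seen. Named after their values were seen, the higher ones include the muscle cytochrome oxidase subunit gene Cox7a1, with log2 differences of 1.48 in the control and -0.10 at 48 h, the meiotic kinase gene Aurkc (1.07 and -0.16), and Tbx3 and Prdm14 from the naive list. Foxa1, a pioneer factor of endoderm, Bhmt2 and Bhmt, methyltransferases that remake methionine, and the chemokine gene Cxcl14 were detected on both control arrays and on no 0 h or 48 h array. They were at least 2.53-fold, 2.41-fold, 1.30-fold and 1.77-fold higher in the control than at 0 h.

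Seen against the whole series, both control arrays lay above the other 14 arrays for 1437 probes (10.3%) and below them for 1482 (10.6%). Their sum of 2919 became 4696 and 4612 with 1 control array alone, without replicate 1 and 2. With fewer arrays to agree, this sum can only rise. The corresponding counts were 1298 (9.29%) and 1086 (7.77%) for 48 h of induction, 587 (4.2%) and 702 (5.02%) for 0 h, and 91 (0.651%) and 86 (0.615%) for 12 h, the lowest of the 8 groups.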

How the data were processed

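Total RNA of 16 samples was measured on 1-colour Illumina bead arrays. Per the labels' protocols, 300 ng of RNA free of DNA was amplified to biotin-labelled cRNA. The deposited intensities were linear, called non-normalized by the authors in the file's name, and not log-transformed; the submitters' processing notes name BeadStudio 3.2, RMA and lumi with no role. The deposited detection p-values came in steps of 1 in 798. The authors' deposited series table holds log2 values that were quantile normalized, with the same sorted values in all 16 columns within 0.05 and a median of 4.13; its background step is not given in the sources used here. It served as an alternative. Every column of values was matched to a sample title (0 were left unmatched).

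Background was corrected with normexp from the detection p-values (offset 16), followed by quantile normalization and log2 (neqc, limma 3.58.1, R 4.3.3). The offset shrinks differences, most for dim probes. The 13974 probes detected at p under 0.05 on at least 2 arrays were tested in 1 limma fit over all 16 arrays, with 1 coefficient per group and 8 residual degrees of freedom. Benjamini-Hochberg adjustment ran over all tested probes. A probe dim in 1 group has a bound, computed against the higher of its own value and the lowest detected value on each array. Each gene takes its brightest probe.

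Of 25697 probes, 23978 had 1 symbol, 0 had several and 1719 had none in the platform annotation, which can be old; 23962 matched RefSeq by gene number. The rule for named genes took the 10 highest and 10 lowest differences of the control from 0 h, the 5 highest and 5 lowest control-only genes, the 3 brightest gained and lost, and the members of 19 lists; others are said to be chosen after their values were seen. The members, lists and limits were chosen with earlier results of these data known. Alternatives changed the scaling, background, offset, filter, moderation, samples fitted, thresholds, the replicate number as a block, and left out each array.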

Additional observations from a re-analysis of the deposited data

Results flagged for a closer look

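For 29 of the 199 named genes, the difference from 0 h in the control and that at 48 h of induction lay at least 1 log2 unit apart, by the limma test of the difference itself (48 h minus control, adjusted p under 0.05). Among all 13974 tested probes, 65 (0.465%) passed this test at least 1 unit higher at 48 h, and 134 (0.959%) at least 1 unit lower. The named genes are not a neutral sample of these probes. They include the highest and lowest control-only genes, picked from probes already required to differ between 48 h and the control. The presence of those genes among the 29 was thus largely set by the choice. The limit of 1 was set after values were known, and no group is large enough for a test of single outlying arrays.

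In 18 genes the control was the higher. The widest gaps were in Cbln1 (-1.87), Gm13043 (-1.81), Gm20767 (-1.80), Zscan4c (-1.78) and Tdgf1 (-1.71). Among other genes of the 2-cell-like and predicted multi-copy kind, the values were -1.70 for BC147527, -1.63 for Usp17la, -1.59 for AF067061, -1.57 for Tcstv3, -1.54 for Tcstv1 and -1.49 for Tdpoz4, which was not detected at 48 h (at least 2.08-fold). Among pluripotency genes, Fgf4 stood at -1.54, Tbx3 at -1.29, Klf4 at -1.12 and Tcl1 at -1.05. Rgcc was at -1.59, Gsc at -1.30 and Tgfbi at -1.11.

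In 11 genes 48 h was the higher. Acta2 led with 2.15, followed by Fgfbp1 (2.01), Lox (1.80), Fos (1.66), Actg2 (1.43, not detected in the control), Lpar4 (1.40), Pdlim7 (1.40) and Egr1 (1.35). The keratin genes Krt18 and Krt8 were at 1.26 and 1.19, and the matrix gene Ccn1 at 1.23.

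Zscan4c, Tdpoz4, Fgf4, Tdgf1, Acta2 and Ccn1 passed the test against 0 h in both groups with opposite signs.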

How the results depend on the processing

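The counts kept within 1.5 times of their value under most settings. At an adjusted p under 0.01, 1342 probes differed between 48 h and the control and 374 control-only probes differed from 48 h. With a log2 difference of at least 1 required, 1163 probes changed in the control, 1203 at 48 h and 199 between both, 416 were control-only and 81 of these differed from 48 h. Counting detection at p under 0.01 gave 168 gained and 54 lost probes, and with the other group over 0.10, 60 and 19. Median scaling moved the share of higher probes from 48.6% to 37.4% in the control, from 49.1% to 34.3% among control-only probes and from 49.2% to 35.4% among probes outside the range of the other arrays, and cyclic loess moved the first to 53.9%.

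Leaving out single arrays, the control differed from 0 h in 6259 to 7258 probes, 48 h from 0 h in 6076 to 7451 and 48 h from the control in 1409 to 2426. Control-only probes numbered 1138 to 2253, those that also differed from 48 h 385 to 611, those outside the other arrays 2984 to 4696, and gained and lost probes 682 to 769 and 441 to 493. Shifts over 1.5 times came without 48 h replicate 1 or 2 (1409 and 1475) or control replicate 2 (1552) for 48 h against the control, without control replicate 2 for control-only probes differing from 48 h (385) and for gained probes (769), without control replicate 1 or 2 for the probes outside the other arrays (4696 and 4612), and without any 0 h or control array for lost probes (460, 493, 441 and 443). Where 1 array is left in a group, it is assumed to vary like the others. Fewer arrays must then agree, so the counts of probes outside the other arrays, gained and lost can only rise.

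The replicate number as a block gave 7650, 1602, 662 and 2828 probes in place of 7388, 1599, 613 and 2502. Nothing in the labels ties samples of equal number. Their deviations correlated at -0.07 between 0 h and the control and at 0.17 between 48 h and the control, and over 0.1 in 16 of 28 pairs of groups (highest 0.29), so a shared replicate effect was neither shown nor excluded. The authors' deposited values gave 7112 probes for the control against 0 h.

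Of 150 called named genes, 129 kept their direction and call in every setting; of 2411 values 71 lost the call and 0 reversed. Signal over background limits the dim genes: without background correction the log2 difference of Actg2 was -0.50, in place of -1.43.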

Other observations

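Genes of the lysosome were high in the control. The list was written after several of its members were seen to be high, so its counts are a description. Of 37 tested genes for lysosomal enzymes and membrane proteins, 31 were higher in the control than at 0 h and 1 was lower, where 27.7% and 26.1% of all genes were, with a median log2 difference of 0.87. Neu1, the lysosomal sialidase, had a difference of 2.18, Psap, the precursor of the saposins, of 1.73, the hexosaminidase gene Hexa of 1.63, the membrane protein gene Lamp2 of 1.61 and the cathepsin gene Ctsb of 1.29. The exception that fell was Manba, beta-mannosidase, at -1.74. At 48 h of induction, 33 of the 37 were higher than at 0 h, beside 27.8% of all genes, with a median of 0.99. Between 48 h and the control, 10 were higher and 2 lower at 48 h, beside 9.58% and 9.61% of all genes.

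A list of actin cytoskeleton and serum response genes, the latter including Lox, Ccn1, Srf and Thbs1, was written after Actg2, Pdlim7, Acta2 and Lox were seen to differ between 48 h and the control. It holds those genes, so its counts are a description and support nothing about the list. Of 20 tested, 10 were lower and 3 higher in the control than at 0 h, beside 26.1% and 27.7% of all genes. At 48 h of induction 11 were higher and 1 lower than at 0 h, beside 27.8% and 25.8% of all genes. Between 48 h and the control, 18 of the 20 were higher at 48 h and 0 were lower, with a median of 0.75, where 9.58% and 9.61% of all genes were. The skeletal actin gene Acta1 was at -0.73 in the control and at 2.48 at 48 h, and the tropomyosin gene Tpm1 at -0.65 and 0.42. S100a6, a calcium-binding protein, was at -1.67 and -0.69.

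The Pramel family, whose members are expressed in germ cells and early embryos, was gathered by symbol after Pramel6 and others were seen among the control-only probes, so its counts are a description. Of 10 tested probes, 9 were higher in the control than at 0 h, where 25.7% of all probes were, and all 10 were lower at 48 h than in the control, where 9.05% were, with median differences from 0 h of 1.24 in the control and 0.07 at 48 h. The 6 Tdpoz probes had medians of 0.61 and -0.38. Both are multi-copy families in which a probe may read several members, so the gene behind a single probe is uncertain.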
